A study of Rattus norvegicus with 6 samples.

Results

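Calcium handling genes were compared in primary fibroblasts of the newborn rat heart (NRCFs), between libraries labelled as FTO overexpression and libraries of cells given the empty plasmid (Vector). The set holds 10 genes, taken by their symbols from 21857 symbols in the count tables. They were chosen with earlier results of these data known. They are the release channels Ryr2 and Itpr1, the pump Atp2a2 with its inhibitor Pln, the store protein Casq2, the entry channel Cacna1c, the exit routes Slc8a1, Atp2b1 and Atp2b4, and the kinase Camk2d. All 10 were listed in each of the 6 libraries and all 10 passed the filter on low counts.

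The cells came from rats at most 3 days old and were collected 48 h after transfection. Per the labels the 3 Vector libraries are of WT genotype and the other 3 carry the genotype FTO overexpression. The design text names Sprague-Dawley rats, whereas the strain label reads "Noway". Per the methods, the FTO plasmid held the rat coding sequence and the cells were separated by their adhesion, so cells other than fibroblasts can remain in such a culture. Nothing in the labels says whether the 3 libraries of a group came from separate animals or cultures, so p-values measure the spread between these libraries only.

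In heart muscle, calcium enters through the L-type channel at the plasma membrane and opens ryanodine receptors of the sarcoplasmic reticulum, which empties the store and starts contraction. SERCA pumps refill the store, phospholamban slows them, calsequestrin binds calcium inside it, and the sodium-calcium exchanger and the plasma membrane calcium pumps carry calcium out of the cell. Fibroblasts do not beat. Their calcium signals are known to rest largely on inositol trisphosphate (IP3) receptors, store-operated channels and TRP channels, and they steer contraction of stress fibres and matrix production.

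The promoter sequences of 6 of these genes are shown because Ryr2, Atp2a2, Pln and Casq2, which act at the reticulum of heart muscle, were higher in the libraries labelled FTO, while the related pumps Atp2b1 and Atp2b4 went in opposite directions. Each runs 5′ to 3′ from upstream of the start of a RefSeq transcript to just inside it, on rat build GRCr8, and other transcripts of a gene can start elsewhere. RefSeq promoters were matched for all 10 genes. Capitals mark matches, on either strand, to CCAAT, to GGGCGG and to the MEF2 motif. In Ryr2, 2 of the GGGCGG matches overlap. Matches to CANNTG are not in capitals.
Ryr2, chr17:63081277-63081576, plus strand: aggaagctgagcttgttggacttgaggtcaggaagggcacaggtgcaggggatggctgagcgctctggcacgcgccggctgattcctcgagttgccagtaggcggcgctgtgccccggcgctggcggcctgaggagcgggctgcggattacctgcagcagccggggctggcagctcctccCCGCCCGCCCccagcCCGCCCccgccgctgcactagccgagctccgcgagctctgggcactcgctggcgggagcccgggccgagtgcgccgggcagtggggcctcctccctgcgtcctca
Atp2a2, chr12:39733269-39733568, plus strand: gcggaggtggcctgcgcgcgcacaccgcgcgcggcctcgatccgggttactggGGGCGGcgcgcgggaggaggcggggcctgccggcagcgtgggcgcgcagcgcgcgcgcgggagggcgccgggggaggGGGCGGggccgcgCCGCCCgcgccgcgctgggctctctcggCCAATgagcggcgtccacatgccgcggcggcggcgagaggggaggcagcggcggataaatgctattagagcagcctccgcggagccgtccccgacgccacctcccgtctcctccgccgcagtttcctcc
Pln, chr20:33172244-33172543, plus strand: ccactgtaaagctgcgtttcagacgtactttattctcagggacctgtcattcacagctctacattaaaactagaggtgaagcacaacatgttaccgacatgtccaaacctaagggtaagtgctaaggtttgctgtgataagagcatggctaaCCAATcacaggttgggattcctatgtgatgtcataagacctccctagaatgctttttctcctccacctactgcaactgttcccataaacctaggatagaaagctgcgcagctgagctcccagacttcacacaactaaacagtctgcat
Casq2, chr2:192214306-192214605, plus strand: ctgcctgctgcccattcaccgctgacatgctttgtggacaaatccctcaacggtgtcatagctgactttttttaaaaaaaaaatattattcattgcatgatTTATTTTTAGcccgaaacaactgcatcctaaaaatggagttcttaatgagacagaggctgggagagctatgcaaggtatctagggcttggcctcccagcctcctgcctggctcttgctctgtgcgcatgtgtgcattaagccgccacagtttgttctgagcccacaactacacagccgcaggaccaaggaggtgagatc
Atp2b1, chr7:35622211-35622510, plus strand: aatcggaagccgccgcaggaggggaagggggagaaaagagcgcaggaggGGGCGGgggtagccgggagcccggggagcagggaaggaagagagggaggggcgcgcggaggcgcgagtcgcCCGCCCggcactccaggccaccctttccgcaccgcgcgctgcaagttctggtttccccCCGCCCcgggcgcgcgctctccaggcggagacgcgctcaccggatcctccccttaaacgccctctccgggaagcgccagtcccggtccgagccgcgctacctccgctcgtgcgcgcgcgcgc
Atp2b4, chr13:47758827-47759126, minus strand: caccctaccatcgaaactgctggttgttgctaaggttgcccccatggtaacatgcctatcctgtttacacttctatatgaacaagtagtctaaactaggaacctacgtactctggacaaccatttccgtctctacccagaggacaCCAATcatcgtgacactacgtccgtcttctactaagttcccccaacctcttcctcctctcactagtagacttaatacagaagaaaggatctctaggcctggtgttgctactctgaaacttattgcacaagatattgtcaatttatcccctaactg

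The GC content of these windows did not separate the directions. Among the genes that were higher in the libraries labelled FTO it was 73% in Ryr2, 79% in Atp2a2 and 74.3% in Atp2b1, but 45% in Pln and 47.7% in Casq2. Among those that were lower it was 74.7% in Camk2d and 62% in Itpr1, but 51.7% in Cacna1c, 44.7% in Atp2b4 and 36.3% in Slc8a1. The median over 33365 rat promoters of this length was 51.7%.

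The search covered 8 motifs on both strands. GGGCGG, the GC box, was found in 4 of the 10 windows (Ryr2, Atp2a2, Atp2b1 and Camk2d) and in 33.1% of all rat promoters. CCAAT was found in 5 windows and in 37.5% of all promoters, and CANNTG, the E-box, in 7 windows and in 72.1%. In Slc8a1 a CANNTG match overlaps a CCAAT match. CATTCC, the M-CAT element, matched in Cacna1c, against 14.2% of all promoters. The MEF2 motif matched in Casq2, against 3.29%. TATAAA (14.2% of all promoters), AGATAA (11.6%) and the CArG motif (1.63%) had no match in the 10 windows. A match describes letters in a window and is not a measured binding site.

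Fto was examined first as a check of the labels. Its level was 87.8, 89.6 and 87.4 CPM (counts scaled to library size with TMM factors) in Vector replicates 1, 2 and 3. It was 93.2, 90.8 and 92.9 CPM in the libraries labelled FTO. On the log2 scale the difference was 0.06 (SE 0.0468), and edgeR's quasi-likelihood test gave an adjusted p-value of 0.239. No rise of Fto was thus detected, which is why the treated group goes by its label throughout and directions are those of the libraries labelled FTO against Vector.

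The libraries held 13178952 to 17857999 counts. Within the groups, log2 CPM of the 12941 tested genes correlated at 0.994 to 0.997 across genes, and between the groups at 0.893 to 0.900. Defining fibroblast markers were detected in all libraries, with a summed level of 38138 to 38912 CPM in Vector and 20242 to 21356 CPM in the libraries labelled FTO. In Vector this sum was carried by Col1a1 (25809 CPM) and Col3a1 (10699 CPM). All 9 on the list differed, 5 higher and 4 lower, where 33.2% of all tested genes were higher and 32.8% lower. The most abundant fibroblast markers were Col1a1 (log2 fold change -1.64), Col3a1 (-1.68) and Dcn (47.0 ± 1.57 to 5611 ± 221 CPM, 6.90). Cardiomyocyte markers were present too. Of 14 analysed, each was detected in every library, and their summed level rose from between 1588 and 1614 CPM in Vector to between 2538 and 2663 CPM in the libraries labelled FTO. All these are bulk measurements, in which fewer cells of a type and less RNA per cell cannot be told apart.

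All 10 calcium handling genes passed edgeR's test at the adjusted threshold of 0.05. In the libraries labelled FTO, 5 were higher and 5 were lower. This count has to be read against a background in which 65.9% of all tested genes passed, 33.2% higher and 32.8% lower, and in which 73.1% passed among the genes counted at least as deeply as Atp2b4, the member with the fewest counts (a mean of 380 per library). In 9 of the 10 no library of one group lay within the CPM range of the other, against 70.3% of all tested genes, and the exception was Slc8a1. At the threshold of the study, a log2 fold change of at least 1 in either direction with an unadjusted p-value under 0.05, 4 genes passed (Ryr2, Itpr1, Cacna1c and Atp2b4), against 19.6% of all tested genes. The median size of the log2 fold change, regardless of sign, was 0.74 over the members and 0.36 over all tested genes. As the members were chosen with earlier results known, these comparisons do not test the set. Without Vector replicate 2 or without Vector replicate 3, 9 members passed, because Slc8a1 did not.

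**Figure D1:**
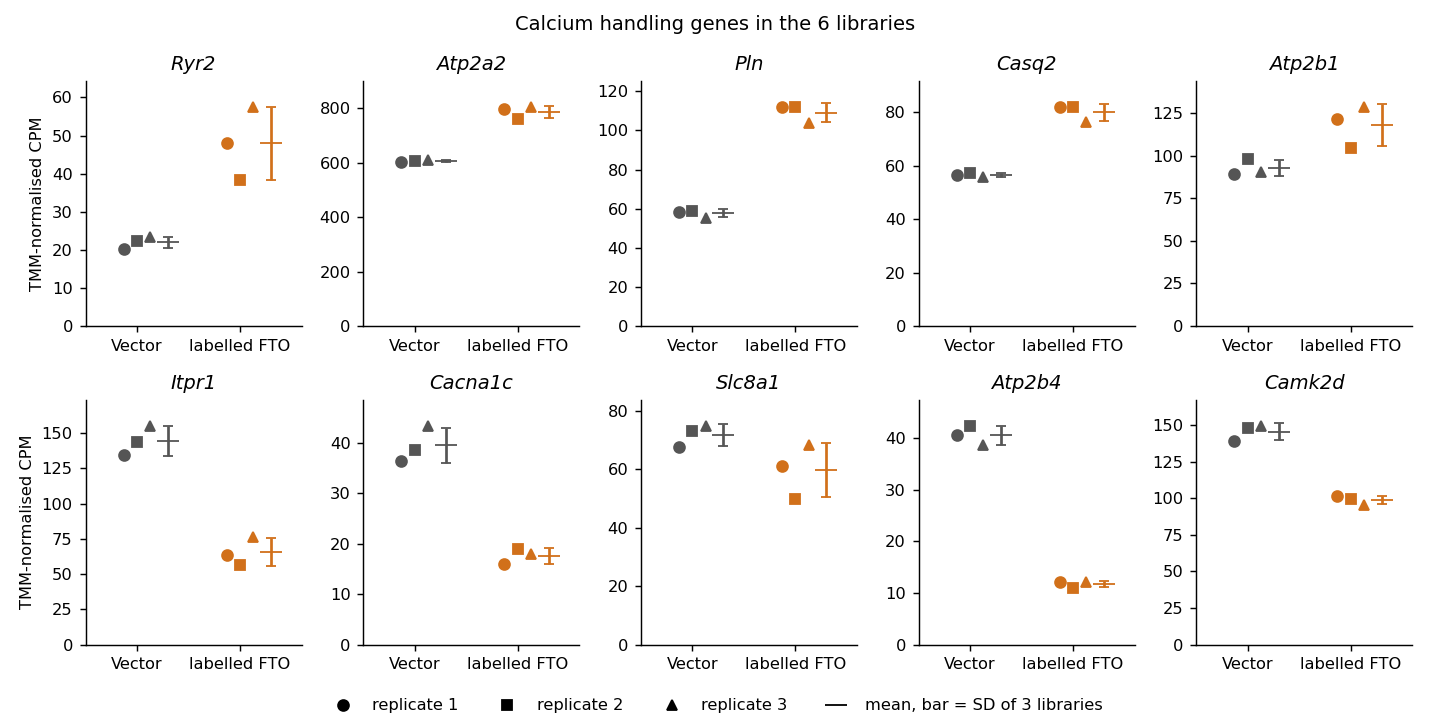
Levels of the 10 genes in TMM-normalised CPM (vertical axes, each starting at 0) in the 3 Vector libraries (grey) and the 3 libraries labelled FTO (orange), with the mean and SD beside the points. The upper row holds the 5 genes that were higher and the lower row the 5 that were lower in the libraries labelled FTO, and only Slc8a1 shows overlapping groups.

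Of the 5 members that act at the reticulum, Ryr2, Atp2a2, Pln and Casq2 were higher in the libraries labelled FTO and Itpr1 was lower. Ryr2, the cardiac ryanodine receptor, was at 20.3, 22.2 and 23.3 CPM in Vector and at 48.05, 38.3 and 57.4 CPM in the libraries labelled FTO. The groups were far apart, although the libraries labelled FTO also spread widely, with replicate 3 at 1.499 times the level of replicate 2. This was a log2 fold change of 1.13 (SE 0.118), a 2.20-fold rise with a 95% confidence interval of 1.84 to 2.62, and the adjusted p-value was 6.1e-07. Without FTO replicate 3 the log2 fold change was 0.97 and thus just under the size threshold of the study.

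Pln encodes phospholamban, the small membrane protein that restrains the SERCA pump until it is phosphorylated. It was at 58.3, 59.0 and 55.2 CPM in Vector and at 112, 112 and 104 CPM in the libraries labelled FTO, so the libraries of each group lay close together. Pln was 1.90-fold higher, with an interval of 1.75 to 2.05 (log2 fold change 0.92, SE 0.0538, adjusted p-value 6.1e-10). In the RefSeq annotation Pln overlaps Cep85l. Whether the counting used strand is not given in the sources used here, so reads from the overlap cannot be assigned. Cep85l was at 4.56 ± 0.752 and 3.21 ± 0.630 CPM (SD, 3 libraries each), a change in the opposite direction to Pln.

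Atp2a2 encodes SERCA2, the pump that returns calcium to the reticulum in heart and in most other cells. It was at 602, 607 and 610 CPM in Vector and at 797, 762 and 804 CPM in the libraries labelled FTO. With a mean of 10322 counts per library it was the most precisely measured member. The rise was 1.30-fold with an interval of 1.23 to 1.38 (log2 fold change 0.38, SE 0.0383, adjusted p-value 4.5e-07). Casq2, cardiac calsequestrin, was at 56.5, 57.4 and 55.8 CPM and at 81.7, 81.8 and 76.3 CPM. It was 1.41-fold higher, with an interval of 1.30 to 1.53 (log2 fold change 0.50, SE 0.0534, adjusted p-value 8.5e-07), without overlap of the groups.

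The fold change of Pln was larger than that of its target pump, 1.90 against 1.30. The ratio of Pln to Atp2a2 counts was 0.0969, 0.0973 and 0.0905 in Vector and 0.140, 0.147 and 0.129 in the libraries labelled FTO. The means were 0.0949 ± 0.00380 and 0.139 ± 0.00890 (SD), and the groups did not overlap. The exact two-sided permutation test gave p = 0.1, the smallest value that 3 libraries against 3 allow. This ratio was chosen after the values had been seen, and it compares the groups, not the amounts of the proteins.

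Cardiomyocyte markers moved in the same direction as these 4 genes. Of the 14 analysed, 13 were higher and 1, Tnnt2, was lower, where 33.2% of all tested genes were higher and 32.8% lower. The most abundant were Tnnt2 (770 ± 7.94 to 649 ± 22.0 CPM, a log2 fold change of -0.25), Nppa (271 ± 4.97 to 658 ± 53.3 CPM, 1.28) and Myh6 (192 ± 7.95 to 496 ± 53.0 CPM, 1.37). The median log2 fold change of the list was 1.32, above that of Ryr2 (1.13), Pln (0.92), Casq2 (0.50) and Atp2a2 (0.38). None of the 14 markers was at 0 in any library. The other members did not all go with the markers. Atp2b1 was higher (0.35), but Cacna1c (-1.17), Camk2d (-0.56), Slc8a1 (-0.26), Itpr1 (-1.14) and Atp2b4 (-1.79) were lower. The part of cardiomyocyte RNA in the rise of Ryr2, Atp2a2, Pln and Casq2 was not tested.

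**Figure D2:**
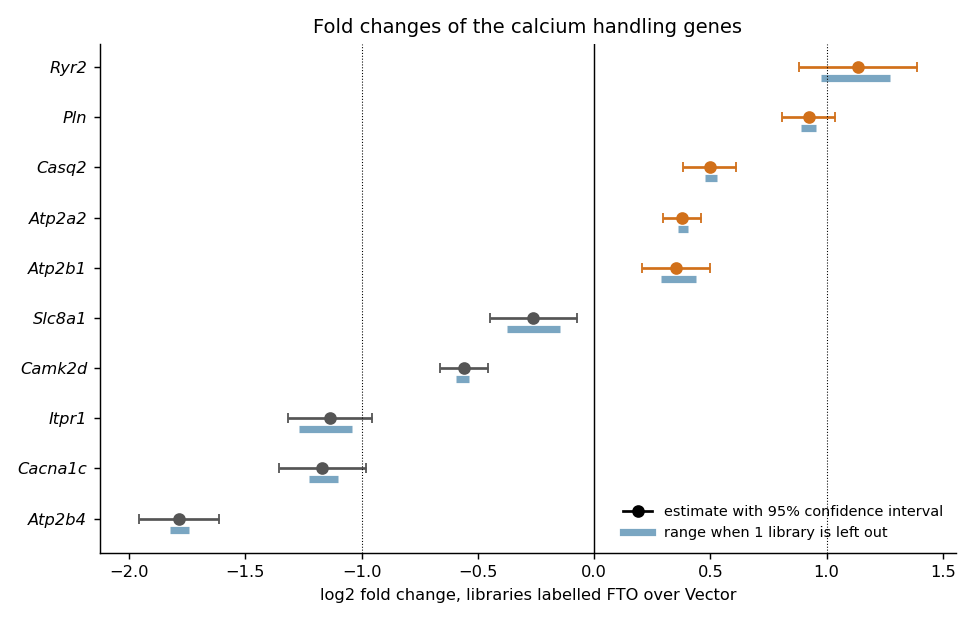
Log2 fold change of the 10 genes, libraries labelled FTO over Vector (horizontal axis), with 95% confidence intervals. Blue bars give the range of estimates when any 1 library is left out, and dotted lines mark log2 fold changes of 1 in either direction. Atp2b4 (-1.79) and Ryr2 (1.13) lie at the ends, and the interval of Slc8a1 comes closest to 0.

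The IP3 receptor moved against the ryanodine receptor. Itpr1, the type 1 receptor that releases reticulum calcium when IP3 is formed, was at 134, 144 and 155 CPM in Vector and at 63.7, 56.3 and 75.9 CPM in the libraries labelled FTO. Every library labelled FTO was far below every Vector library. The fall was 2.20-fold (log2 fold change -1.14, SE 0.0844, adjusted p-value 1.1e-08). Its relatives did not follow. Itpr3 was higher, at 36.0 ± 1.75 and 55.5 ± 2.66 CPM (log2 fold change 0.62, adjusted p-value 5.2e-07). Itpr2 was at 20.9 ± 0.809 and 23.0 ± 5.38 CPM, which did not pass (log2 fold change 0.15, adjusted p-value 0.310). It passed without FTO replicate 2 (0.29) and changed sign without FTO replicate 3 (-0.06). Of all counts of the 3 receptor genes, Itpr1 held 71.7% ± 1.25 in Vector and 45.3% ± 1.51 in the libraries labelled FTO (exact two-sided permutation p = 0.1, the smallest possible). These shares are of read counts without a correction for transcript length, so they serve to compare groups and not receptors.

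Cacna1c, the pore-forming subunit of the L-type channel through which calcium enters on depolarisation, was lower. It was at 36.5, 38.6 and 43.4 CPM in Vector and at 15.9, 18.9 and 17.9 CPM in the libraries labelled FTO, without overlap. Cacna1c fell 2.25-fold (log2 fold change -1.17, SE 0.0878, adjusted p-value 1.3e-08). The annotation places Dcp1b over the same locus, and it was at 6.08 ± 0.450 and 5.61 ± 0.893 CPM, with an adjusted p-value of 0.547.

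The exit routes went apart. Atp2b4, a plasma membrane calcium pump (PMCA4), had the largest change of the 10 members. It was at 40.5, 42.3 and 38.7 CPM in Vector and at 12.1, 10.95 and 12.1 CPM in the libraries labelled FTO. Both groups were tight and far from each other. The pump fell 3.45-fold (log2 fold change -1.79, SE 0.0804, adjusted p-value 2.5e-11).

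Atp2b1, the broadly expressed pump PMCA1, was higher. It was at 89.3, 98.2 and 90.3 CPM in Vector and at 122, 104 and 128 CPM in the libraries labelled FTO. The gap between the highest Vector library and the lowest library labelled FTO was narrow. PMCA1 rose 1.28-fold (log2 fold change 0.35, SE 0.0684, adjusted p-value 3.3e-04). Of the counts of both pumps, Atp2b1 held 69.5% ± 0.672 in Vector and 90.9% ± 0.450 in the libraries labelled FTO (exact two-sided permutation p = 0.1, the smallest possible). The other family members Atp2b2 and Atp2b3 were too low to be tested, with means of 1.17 and 1.33 counts per library.

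Slc8a1, the sodium-calcium exchanger NCX1, was the weakest call. It was at 67.5, 72.9 and 74.8 CPM in Vector and at 61.2, 49.6 and 68.1 CPM in the libraries labelled FTO, where replicate 3 lay above Vector replicate 1. Its log2 fold change of -0.26 (SE 0.0880) had a 95% confidence interval of -0.45 to -0.07, and the adjusted p-value was 0.0168. The call was lost without Vector replicate 2 (adjusted p-value 0.0506) and without Vector replicate 3 (0.0690). The size depended on FTO replicate 2, without which the log2 fold change was -0.15 with an adjusted p-value of 0.0474.

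**Figure D3:**
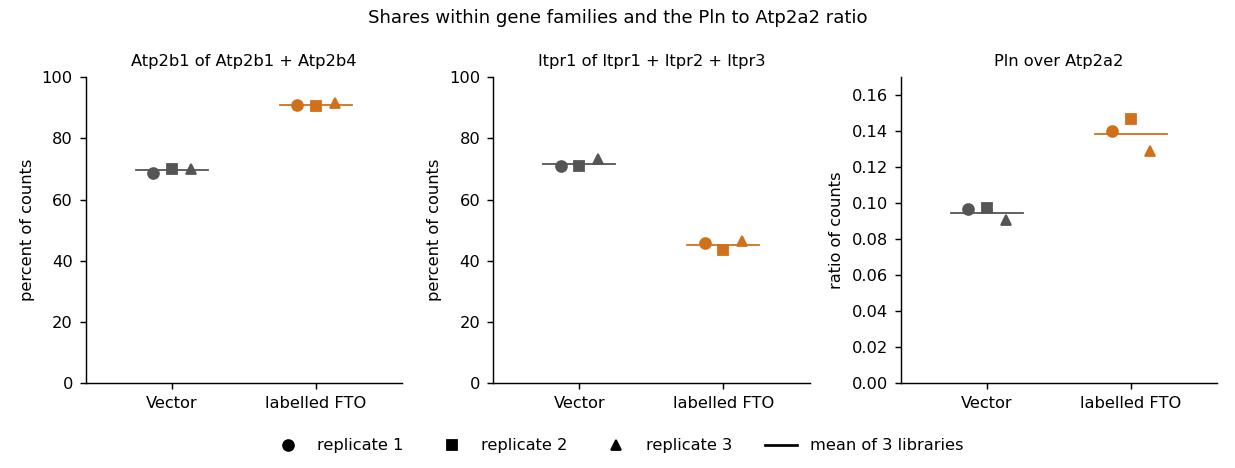
Atp2b1 as a percent of Atp2b1 and Atp2b4 counts (left), Itpr1 as a percent of the counts of the 3 IP3 receptor genes (middle) and the ratio of Pln to Atp2a2 counts (right) in each library, with group means as lines. The libraries of the groups do not overlap in any panel.

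Camk2d, the main calcium/calmodulin-dependent kinase II gene of the heart, whose product phosphorylates both RyR2 and phospholamban, was lower. It was at 139, 148 and 149.7 CPM in Vector and at 101, 99.8 and 95.7 CPM in the libraries labelled FTO. The libraries of each group lay close together and the groups were well apart. The kinase fell 1.47-fold (log2 fold change -0.56, SE 0.0481, adjusted p-value 6.5e-08). Camk2g was lower as well, at 3.21 ± 0.134 and 1.52 ± 0.480 CPM with an adjusted p-value of 0.00146. Camk2a (log2 fold change -0.76) and Camk2b (-0.54) did not pass, with adjusted p-values of 0.0687 and 0.240 from means of 11.3 and 13.5 counts per library. Camk2b passed once FTO replicate 1 was left out (-1.09). Camk2d held 96.5% ± 0.384 and 97.2% ± 0.771 of the counts of the 4 kinase genes in the groups (exact two-sided permutation p = 0.3). With 3 libraries against 3 the smallest possible p is 0.1, so this test could not pass at 0.05.

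Markers of smooth muscle and pericytes moved both ways. Of 8 tested, 5 were lower and 3 higher, and the summed level of the 9 listed went from between 1317 and 1355 CPM to between 773 and 809 CPM. The most abundant were Des (86.4 ± 4.75 to 472 ± 25.6 CPM), Mcam (399 ± 4.55 to 55.2 ± 5.18 CPM) and Myh11 (315 ± 6.83 to 27.1 ± 3.09 CPM). Macrophage markers fell in 7 of 8 cases and rose in 1, Adgre1, and their summed level went from between 399.9 and 421 CPM to between 100.4 and 118 CPM. The most abundant were Csf1r (log2 fold change -3.96), Cd68 (-1.13) and Ptprc (-1.86). Endothelial markers were low, with a summed level of 33.7 to 36.4 CPM in Vector and 57.7 to 62.2 CPM in the libraries labelled FTO, 4 higher and 1 lower of 6 tested, and Emcn was at 0 in each Vector library. Tek (1.16), Esam (-0.89) and Egfl7 (0.95) led that list. Shares over all tested genes were 33.2% higher and 32.8% lower. The part of these cell types in the members' changes was not tested.

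**Figure D4:**
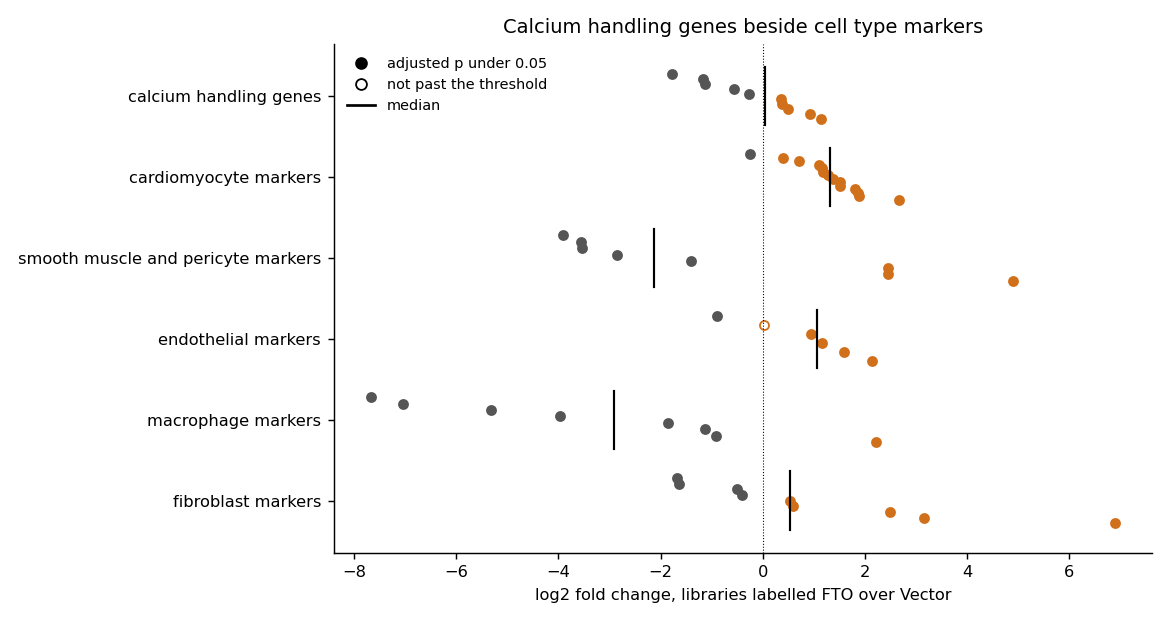
Log2 fold changes (horizontal axis) of the 10 calcium handling genes and of the tested genes on 5 cell type marker lists, 1 point per gene. Filled points have an adjusted p-value under 0.05 and bars are list medians. The cardiomyocyte median lies at 1.32 and the smooth muscle and pericyte median at -2.14, while the members lie on both sides of 0 with a median of 0.05.

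A wider list of 106 calcium transport and signalling genes was then examined, of which 103 were matched and 87 could be tested. Of these, 63 (72.4%) passed, against 65.9% of all tested genes, with 26 higher, 37 lower and 24 not past the threshold. The median log2 fold change was -0.08, against 0.00 over all tested genes.

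Of 9 other entry channel subunits tested, 6 were higher and 2 lower, where 33.2% of all tested genes were higher and 32.8% lower. Whether these subunits differ from other genes was not tested. Cacna1h, a T-type pore subunit, was at 4.05 ± 1.10 and 12.6 ± 2.08 CPM (log2 fold change 1.64), and Cacna2d2, an accessory subunit, was at 16.8 ± 1.08 and 23.8 ± 0.978 CPM (0.50). Cacna1d, the other L-type pore subunit on the list, was at 2.21 ± 0.729 and 7.32 ± 0.962 CPM (1.74, adjusted p-value 2.5e-06), a gene singled out after its values were seen.

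Store-operated and TRP channels moved both ways, with 5 higher and 4 lower of 12 tested. Shares over all tested genes were 33.2% and 32.8%. Orai2, a pore subunit of store-operated channels, was at 34.9 ± 2.76 and 60.3 ± 1.98 CPM (log2 fold change 0.79). Trpc6, a calcium-permeable channel opened by diacylglycerol, fell from 36.2 ± 2.39 to 1.08 ± 0.295 CPM (log2 fold change -5.05, adjusted p-value 9.1e-14), which was the largest fall on the list. Trpv2, another cation channel of the TRP family, fell from 45.7 ± 0.676 to 14.3 ± 2.25 CPM (-1.69).

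Of 11 tested genes that lead to IP3, the ligand of Itpr1, 6 were lower, 1 was higher and 4 did not pass. The share that passed is thus near the 65.9% of all tested genes, of which 32.8% were lower. The phospholipases Plcb2 and Plce1 fell from 16.2 ± 0.515 to 3.49 ± 0.757 CPM and from 63.9 ± 2.85 to 13.9 ± 3.05 CPM, with log2 fold changes of -2.19 and -2.18. Downstream, 3 of 6 NFAT and MEF2 factors tested were lower and 1 was higher, against 32.8% and 33.2% of all tested genes. The calcineurin-driven factor Nfatc1 (-1.72), its relative Nfatc3 (-0.54) and the transcription factor Mef2c (-1.29) were lower, whereas Nfatc4 was higher (0.55). The kinase kinases Camkk1 and Camkk2 went apart, at -1.67 and 0.49. Rcan2, a regulator of calcineurin, was higher at 0.34, whereas its relative Rcan1 was lower, at 76.5 ± 1.17 and 63.2 ± 4.11 CPM (-0.28, adjusted p-value 5.7e-04). Nfatc3 and Rcan1 were added with their values in view.

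Partners of the reticulum store did not move as a block. Of 9 release channel partners tested, 3 were higher and 4 lower, where 33.2% of all tested genes were higher and 32.8% lower. Jph1, a junctophilin that ties the reticulum to the plasma membrane, fell from 12.7 ± 1.91 to 4.67 ± 0.780 CPM (log2 fold change -1.42). Its relative Jph2 was higher, at 88.1 ± 3.29 and 109 ± 4.77 CPM (0.31), as was triadin (Trdn), which links calsequestrin to the ryanodine receptor, at 2.62 ± 0.668 and 6.14 ± 0.933 CPM (1.23). Sarcolipin (Sln), the other small inhibitor of SERCA on the list, was at 2.29 ± 0.557 and 4.33 ± 0.822 CPM (0.91, adjusted p-value 0.00257). Among the remaining release channel partners, Fkbp1b was lower, at 4.09 ± 0.477 and 1.78 ± 0.521 CPM (-1.19). Sri (-0.14) and Fkbp1a (-0.11) were lower too, and S100a1 was higher (0.77). All genes of this paragraph except Jph1 were picked with their values in view.

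Of the other SERCA genes, Atp2a3 fell from 6.41 ± 0.445 to 0.310 ± 0.244 CPM (log2 fold change -4.25, adjusted p-value 1.1e-08), and Atp2a1 was too low to be tested. The libraries labelled FTO held 1, 4 and 10 counts of Atp2a3, and without FTO replicate 3 its log2 fold change was -5.08. Atp2a2 held 98.8% ± 0.0884 of the counts of the 3 pump genes in Vector and 99.9% ± 0.0246 in the libraries labelled FTO (exact two-sided permutation p = 0.1, the smallest possible). Among calcium-binding proteins of the secretory pathway, Sdf4 was higher, at 154 ± 2.06 and 248 ± 3.04 CPM (log2 fold change 0.69). Of the 8 tested 2 were higher and 4 lower, against 33.2% and 32.8% of all tested genes.

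**Figure D5:**
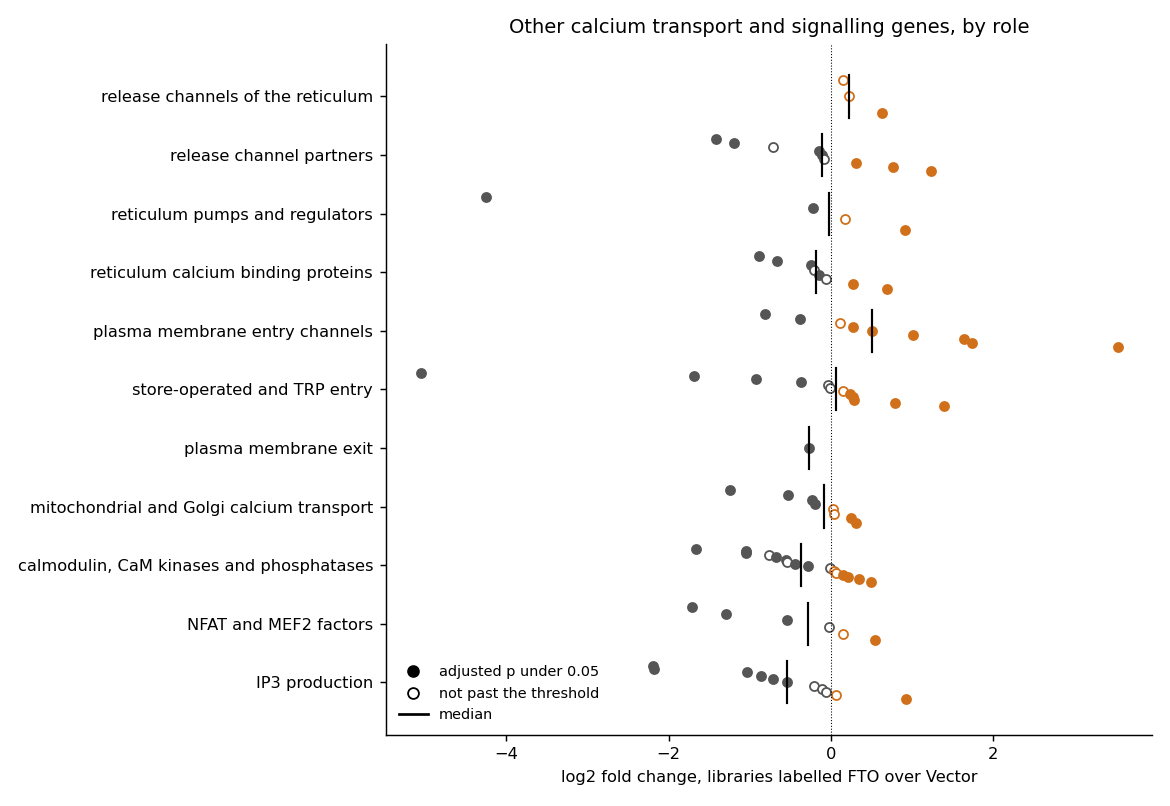
Log2 fold changes (horizontal axis) of the 87 other calcium genes that could be tested, grouped by role, 1 point per gene. Filled points passed the adjusted threshold, open points did not, and bars are medians. Entry channels of the plasma membrane have the highest median (0.50) and genes of IP3 production the lowest (-0.54).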

How the data were processed

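RNA-seq was performed on NRCFs in 6 libraries, 3 of the Vector group and 3 labelled FTO, grouped by the genotype label and numbered by title. The values deposited by the authors are raw read counts, given as whole numbers for each gene symbol in a separate table for every library. The submitters' processing notes name Trimmomatic and rat build rn6. The aligner, counter, annotation and strand setting are not given in the sources used here. Paralogues that share sequence, and overlapping genes, are uncertain to that extent. Promoters are those of RefSeq on GRCr8 and no coordinate was carried between builds.

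Genes were kept with filterByExpr at a minimum count of 10, which left 12941. Libraries were scaled by TMM, and groups were compared with the quasi-likelihood test of edgeR 4.0.16 in R 4.3.3, two-sided, without covariates. P-values were adjusted by Benjamini-Hochberg over all tested genes. Values are TMM-normalised CPM. Each SE is the log2 fold change divided by the root of F. Depth was 13178952 to 17857999 counts, and 3 counts equalled 0.168 to 0.227 CPM, which covers counting error only. Shares were compared by exact permutation over libraries. Alternatives were DESeq2 1.42.0, limma-voom (limma 3.58.1), other scalings and filters, the replicate number as a block and leaving out each library. The procedure was tested on simulated counts in which far fewer genes changed than in these data, equally up and down. The scaling under so broad a change was not checked.

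The members, the gene lists and the tests were chosen with earlier results of these data known. Named genes are all members, Fto, family relatives, the 8 largest increases and 8 largest decreases of the wider list (adjusted p-value under 0.05, no overlap, mean of at least 100 counts) and the 3 most abundant markers per list. Mrln, Trpc1 and Ttn are among the listed genes not analysed here. No library pair of a group held copied counts: chi-square over degrees of freedom was 1.56 to 8.02. This cannot show whether the libraries came from separate cultures.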

Additional observations from a re-analysis of the deposited data

How the results depend on the processing

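All 10 members kept their direction under each of 13 alternatives, and 9 of them passed in each. Slc8a1 passed in 11, and when single libraries were left out its log2 fold change lay between -0.374, without FTO replicate 3, and -0.146, when FTO replicate 2 was dropped. It was -0.253 without Vector replicate 2 and -0.235 without Vector replicate 3, where the call was lost. The cause was not tested. The number of members called was 9 to 10 when single libraries were left out and 10 under the other alternatives. The number past the threshold of the study was 3 without FTO replicate 3 and 4 otherwise. The wider list gave 55 to 64 calls, and all genes gave 7795 (DESeq2) to 9009 (no filter on low counts). Fto did not pass in any of its 13 alternatives, with adjusted p-values of 0.182 to 0.450.

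Itpr2 changed sign without FTO replicate 3 (-0.0627) and passed without FTO replicate 2 (0.289), and Camk2b passed without FTO replicate 1 (-1.09). The difference between the groups in the share of Camk2d was 0.712 percentage points, and 0.279 without FTO replicate 2. Of 46 genes followed, 43 kept their direction and call in all alternatives. Deviations of same-numbered libraries correlated at 0.006, -0.087 and 0.044, and those of differently numbered libraries at -0.131 to 0.122. So few libraries cannot show whether they were paired by number. With the replicate number as a block, 10 members, 60 genes of the wider list and 8399 genes in all passed. Shares per exon length were not run, as no annotation of the build was used here.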

Other observations

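Mitochondrial calcium genes were also compared. Of 8 genes of mitochondrial and Golgi calcium transport, 4 were lower and 2 higher, against 32.8% and 33.2% of all tested genes. Mcu, the pore of the mitochondrial calcium uniporter, fell from 41.1 ± 2.39 to 17.4 ± 1.62 CPM (log2 fold change -1.24, adjusted p-value 3.1e-09 by edgeR). Micu2, a regulator of the uniporter, did not pass (0.02). Slc8b1, the mitochondrial sodium-calcium exchanger, was higher (0.31). Of the calmodulin genes, Calm3 fell from 704 ± 10.7 to 441 ± 12.7 CPM, whereas Calm2 was at 370 ± 8.89 and 385 ± 21.0 CPM and did not pass (adjusted p-value 0.278). The genes of this paragraph were chosen with their values in view.

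Within the libraries labelled FTO, 5 members (Ryr2, Itpr1, Atp2a2, Slc8a1 and Atp2b1) were lowest in replicate 2 and highest in replicate 3, and 3 (Pln, Casq2 and Camk2d) were lowest in replicate 3. The ratio of the highest to the lowest of these libraries was 1.499 for Ryr2, 1.37 for Slc8a1, 1.35 for Itpr1 and 1.23 for Atp2b1, and 1.05 to 1.19 for the other 6 members. In Vector it was 1.01 to 1.19 over the 10 members. FTO replicates 2 and 3 were also the pair of libraries with the highest chi-square per degree of freedom (8.02), and they had the lowest and the highest total counts. What lies behind this order was not tested.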
